A study of Mus musculus with 6 samples.

Results

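The interleukin-1 family genes of wound macrophages were described across 6 bulk RNA-seq samples. The 8 genes, chosen by their symbols among the 15168 genes of the count table, were the agonists Il1a and Il1b, the receptor antagonist Il1rn, the signalling receptor Il1r1, its co-receptor Il1rap, the decoy receptor Il1r2, and Il18 with its secreted decoy Il18bp. All 8 were present, and all 8 were among the 11878 genes that passed the filter on low counts. The samples were F4/80+ CD64+ macrophages, gated as live CD45+ CD11b+ cells, sorted from dorsal full-thickness skin wounds of wild-type female C57BL/6J mice on Day 3 after wounding, 3 from young mice (12 weeks) and 3 from aged mice (24 months). Within each age they carry the set letters A, B and C. All mice were given 2 wounds of 10 mm under isoflurane, with buprenorphine for pain. The labels do not say whether a sample is 1 wound, 1 mouse or a pool, so p-values measure the spread between these samples, which may be technical.

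IL-1α and IL-1β bind the same receptor, IL-1R1, which then recruits the accessory protein encoded by Il1rap and signals through MyD88 to NF-κB. Il1rn encodes IL-1Ra, which occupies IL-1R1 without recruiting the accessory protein, whereas the decoy receptor encoded by Il1r2 binds ligand but has no signalling domain. IL-1β and IL-18 are made as precursors that inflammasome-activated caspase-1 cleaves, and IL-18 is neutralised outside the cell by IL-18BP. Macrophages and neutrophils are known sources of IL-1 in skin wounds. RNA was measured here, and neither cleavage nor secretion of the proteins was.

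Totals ran from 15270103 to 17927483 expected counts per sample, and 1 count was worth 0.0553 to 0.0701 CPM (counts relative to the TMM-scaled library total). All 9 macrophage markers on the list were in the table, at a summed 33990 to 51486 CPM, with 2 passing as higher and 1 as lower in aged samples. By the paper's methods, the sort did not exclude Ly6G+ cells, so a few neutrophils may be among the sorted cells. Neutrophil markers were present too, at a summed 579 to 1026 CPM in young and 790 to 1431 CPM in aged samples. Of the 11 tested, 4 passed as higher in aged samples, beside 9.73% of all genes tested. The highest by CPM, S100a9, ran from 184 to 321 CPM in young and from 158 to 412 CPM in aged samples. Keratinocyte markers summed to 3.77 to 5.53 CPM in young samples, and to 20.9, 231 and 10.7 CPM in aged A, B and C. Only 3 of the 12 in the table passed the filter on low counts. All 3 passed as higher in aged samples, beside 9.73% of all genes tested. A scarce gene can pass that filter through the age where it is high, so this count is not read as a result. The leading one, Krt14, was at 80.2 CPM in aged B and at 0.865 CPM or less in the other samples. In bulk samples, fewer cells of a type and less RNA per cell cannot be told apart. The part of these cells in the results was not tested.

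Of the 8 genes, 4 rose in aged Day 3 wound macrophages. These were Il1a, Il1b, Il1rn and Il1rap, and Il18bp fell (edgeR quasi-likelihood test, two-sided, Benjamini-Hochberg adjusted p under 0.05 over all genes tested). Over all genes tested, 9.73% passed as higher and 7.97% as lower. With a change of over 2-fold added, 3 of the 8 were higher (Il1a, Il1b and Il1rap), beside 4.59% of all genes, and 1 was lower (Il18bp), beside 4.2%. In 4 of the 8 every aged sample lay above every young sample, which held for 19.2% of all genes. In 0 of the 8 did every aged sample lie below every young sample, beside 19% of all genes. The median log2 fold change was 0.91 over the 8 genes and -0.02 over all genes tested.

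Il1a, Il1b and Il1rn lie on chromosome 2 (mm10). Il1a (129299610 to 129309972) and Il1b (129364570 to 129371139) are on the minus strand, 54.6 kb apart. Il1rn (24336853 to 24351494, plus strand) is 105 Mb away. Since these 3 genes rose together, their RefSeq promoter windows (GRCm38.p6, 250 bases before to 50 after the start site) are shown 5′ to 3′, with matches in capitals to TATAAA (the TATA box) or to TGANTCA (the AP-1 motif), searched on both strands.
Il1a (chr2:129309923-129310222, minus strand): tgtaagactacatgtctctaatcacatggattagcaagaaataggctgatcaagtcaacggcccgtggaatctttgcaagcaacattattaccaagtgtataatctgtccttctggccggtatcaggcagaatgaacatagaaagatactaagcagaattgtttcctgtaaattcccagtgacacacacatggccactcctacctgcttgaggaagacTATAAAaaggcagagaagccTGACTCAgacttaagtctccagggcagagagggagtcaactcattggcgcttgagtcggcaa
Il1b (chr2:129371090-129371389, minus strand): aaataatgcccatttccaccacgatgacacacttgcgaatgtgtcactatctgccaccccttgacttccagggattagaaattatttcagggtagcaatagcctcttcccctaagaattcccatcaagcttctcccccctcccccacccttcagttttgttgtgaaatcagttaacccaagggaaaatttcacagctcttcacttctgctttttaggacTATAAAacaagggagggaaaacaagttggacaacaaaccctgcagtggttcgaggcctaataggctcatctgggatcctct
Il1rn (chr2:24336610-24336909, plus strand): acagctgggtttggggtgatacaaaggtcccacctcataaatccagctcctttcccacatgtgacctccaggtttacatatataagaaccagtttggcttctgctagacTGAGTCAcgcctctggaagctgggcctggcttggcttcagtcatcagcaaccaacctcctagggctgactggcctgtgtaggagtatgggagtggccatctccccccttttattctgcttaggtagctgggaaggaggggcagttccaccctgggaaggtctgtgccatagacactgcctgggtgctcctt
TATAAA begins 32 bases before the start site in Il1a and 31 before it in Il1b. TGACTCA, 12 bases before the start site of Il1a, and TGAGTCA, 141 bases before that of Il1rn, match TGANTCA. The Il1rn window is the most upstream of its 3. The other Il1rn windows, not shown, hold no match to the AP-1 motif. In 1 of them the other motif has a match after the start site. Which Il1rn start site these macrophages use was not tested. Of 32851 promoter windows of the same length, 13.6% hold TATAAA and 7.81% hold TGANTCA. A match is a description of these letters only.

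Il1a, whose precursor is active without cleavage and acts as an alarmin, showed the largest change of the 8 genes. It was at 90.3, 294 and 238 CPM in young A, B and C, and at 1219, 931 and 1427 CPM in aged A, B and C. Every aged sample stood above every young one, and young A was the lowest of all. The mean rose from 207 ± 105 to 1192 ± 249 CPM (SD, n = 3 per age). The log2 fold change was 2.52 ± 0.38 (SE), its 95% interval 1.69 to 3.36, and the edgeR adjusted p = 0.00436. Leaving out each sample in turn kept the call in 6 of 6 fits.

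Il1b, the main secreted agonist of activated macrophages, was the most abundant of the 8 genes per kb of transcript at both ages. It was at 2782, 5490.5 and 4849 CPM in young A, B and C, and at 9182, 6684 and 11847 CPM in aged A, B and C. Aged samples did not overlap with young ones, and aged B came nearest to them. The mean rose from 4374 ± 1415 to 9238 ± 2582 CPM. The log2 fold change was 1.08 ± 0.29 (SE), its interval 0.43 to 1.73, and the edgeR adjusted p = 0.0328. Among all genes it ranked between 13 and 43 in young and between 8 and 16 in aged samples. Its call depended on single samples. The edgeR adjusted p was 0.0583 without aged A, 0.129 without aged C, 0.0528 without young A, 0.0579 without young B and 0.10 without young C, and the call held without aged B.

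Il1rn, the receptor antagonist, was at 1585, 1173 and 1539 CPM in young A, B and C. In aged A, B and C it was at 2499.9, 2032 and 2615 CPM. Here too every aged sample lay above every young one. The mean rose from 1433 ± 226 to 2382 ± 308 CPM. The log2 fold change was 0.73 ± 0.20 (SE), its interval 0.30 to 1.17, and the edgeR adjusted p = 0.0313. This is a change of under 2-fold. The call was lost without aged A, aged C, young B or young C, with edgeR adjusted p of 0.0629, 0.119, 0.107 and 0.0960, and held without aged B or young A.

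**Figure D1:**
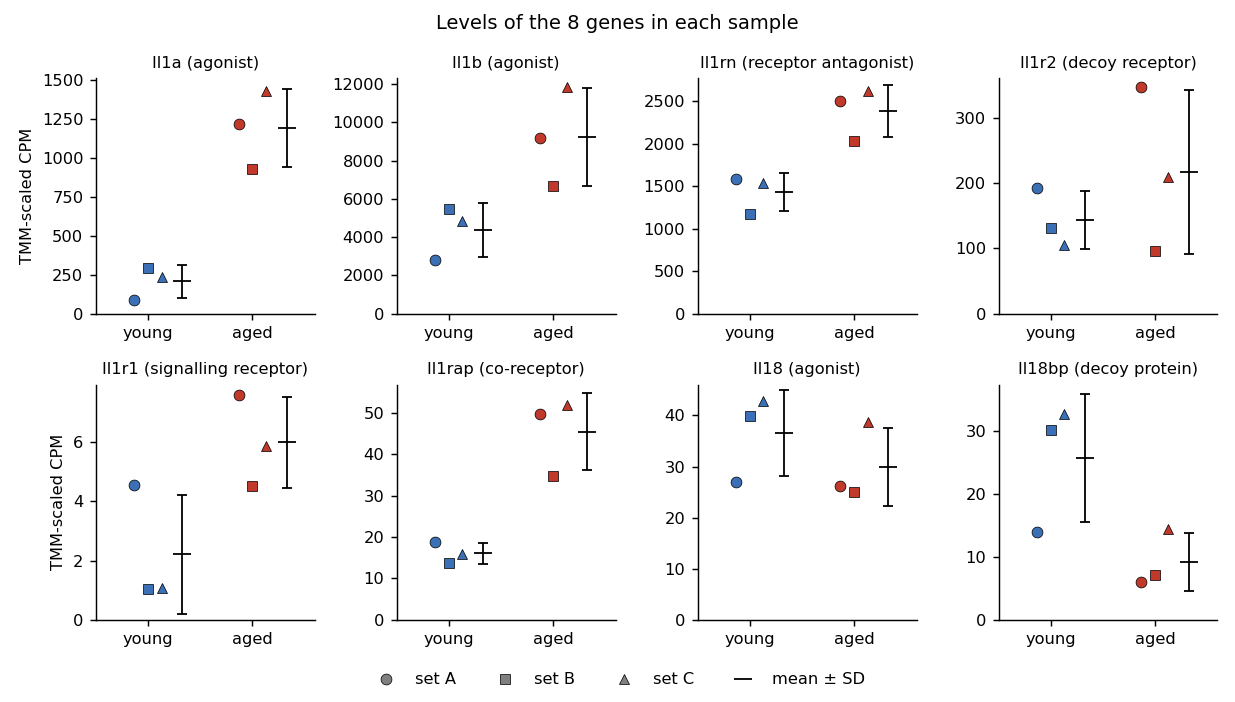
TMM-scaled CPM of the 8 genes in each young (blue) and aged (red) sample, with marker shapes for the set letters and the mean ± SD (n = 3) beside them. The aged samples sit above all young samples for Il1a, Il1b, Il1rn and Il1rap, and the ages overlap for Il1r1, Il1r2, Il18 and Il18bp.

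Per kb of transcript, Il1rap and Il1r1 were scarcer than Il1a, Il1b and Il1rn at both ages. Il1rap (chromosome 16, 26581704 to 26730117), the co-receptor that IL-1R1 needs to signal, was at 18.7, 13.6 and 15.8 CPM in young A, B and C and at 49.7, 34.8 and 51.9 CPM in aged A, B and C. The ages did not overlap. Its mean rose from 16.0 ± 2.55 to 45.5 ± 9.29 CPM. The log2 fold change was 1.5 ± 0.21 (SE), its interval 1.04 to 1.96, and the edgeR adjusted p = 0.00351. The call held in all 6 fits that left out 1 sample. Il1rap is also the co-receptor for IL-33 and IL-36.

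Il1r1 (chromosome 1, 40225080 to 40317257), the signalling receptor itself, was the scarcest of the 8 genes per kb, at 82, 18 and 16 counts in young A, B and C and 108, 71 and 95 counts in aged A, B and C. That is 4.54, 1.06 and 1.06 CPM in young and 7.57, 4.52 and 5.87 CPM in aged samples. Young A lay just above aged B, so the ages overlapped. The means were 2.22 ± 2.01 and 5.99 ± 1.53 CPM. Their log2 fold change of 1.41 ± 0.52 (SE, interval 0.25 to 2.57) did not pass (edgeR adjusted p = 0.0844). It passed in the edgeR fit without young A (log2 fold change 2.50, adjusted p = 0.00365), and with all samples in DESeq2 (adjusted p = 0.0336) and in limma-voom with sample quality weights (adjusted p = 0.00657). The sum of the dendritic cell markers was highest in the samples of set A as well, at 54.7, 21.8 and 16.1 CPM in young and 93.8, 30.3 and 39.6 CPM in aged A, B and C, with 5 of the 6 listed genes in the table. Ccr7 and Xcr1 were also highest in set A at both ages. Ccr7 was at 17.9, 4.17 and 4.29 CPM in young and 44.7, 14.8 and 17.7 CPM in aged A, B and C, and Xcr1 at 19.2, 0.528 and 1.85 CPM and at 34.5, 4.65 and 11.9 CPM. Among young samples, Flt3 (2.43, 2.23 and 2.91 CPM) and Zbtb46 (0.498, 0.587 and 0.661 CPM) were highest in young C instead. Cd209a was at 14.6, 14.3 and 6.41 CPM in young A, B and C and at 8.13 CPM or less in aged samples. These markers besides Ccr7 were named after their values were seen. Their part in the Il1r1 values was not tested.

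Il1r2 (chromosome 1, 40074079 to 40125231), the decoy receptor, lies 99.8 kb from Il1r1. It was at 192, 132 and 105 CPM in young A, B and C and at 347, 96.3 and 209 CPM in aged A, B and C. Aged B held the lowest value and aged A the highest, and the ages overlapped. The means were 143 ± 44.6 and 217 ± 126 CPM. Their log2 fold change of 0.60 ± 0.39 (SE, interval -0.25 to 1.46) did not pass (edgeR adjusted p = 0.296). The interval holds both no change and a rise of more than 2-fold. Without aged A the log2 fold change was 0.094 (edgeR adjusted p = 0.872), and without aged B it was 0.97 (edgeR adjusted p = 0.05002). Il1r2 is also a gene of neutrophils, whose markers summed to 579, 1026 and 887 CPM in young and to 1425, 790 and 1431 CPM in aged A, B and C. Among aged samples Il1r2 was lowest where these markers were, and among young samples it was highest where they were lowest. Their part in the Il1r2 values was not tested.

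**Figure D2:**
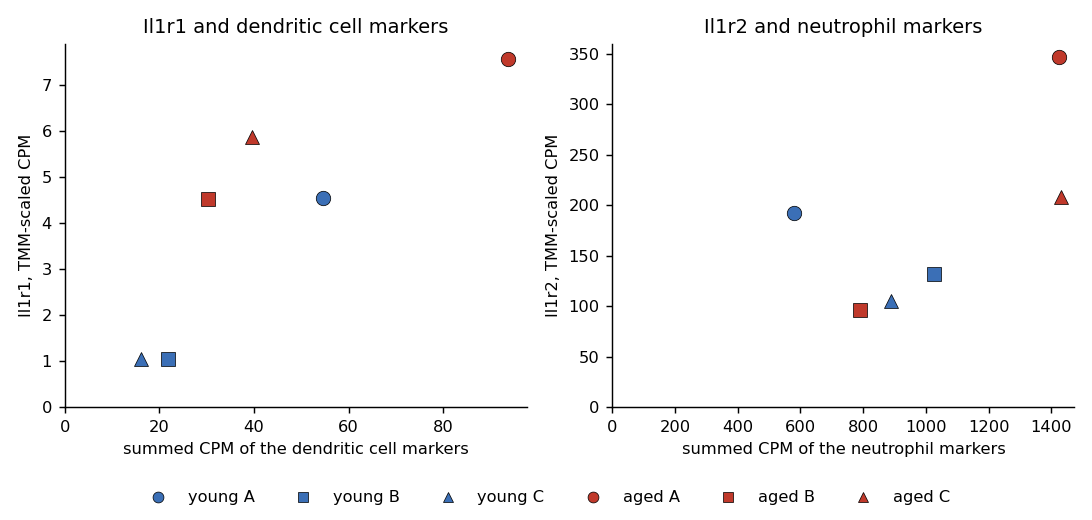
Il1r1 against the summed CPM of the dendritic cell markers (left) and Il1r2 against that of the neutrophil markers (right), 1 point per sample, blue for young and red for aged. Aged A is highest for both receptors, and young A is the young sample highest for both.

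Il18 (chromosome 9, 50554827 to 50581840), the other inflammasome-dependent agonist, was at 26.9, 39.8 and 42.7 CPM in young A, B and C and at 26.1, 25.0 and 38.8 CPM in aged A, B and C. The ages overlapped. The means were 36.5 ± 8.41 and 30.0 ± 7.65 CPM. Their log2 fold change of -0.28 ± 0.23 (SE, interval -0.80 to 0.23) did not pass (edgeR adjusted p = 0.417).

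Il18bp (chromosome 7, 102014885 to 102018690), an interferon-induced gene, was at 14.0, 30.2 and 32.8 CPM in young A, B and C and at 5.95, 7.07 and 14.5 CPM in aged A, B and C. Aged C lay just above young A, and the other samples were separated by age. The mean fell from 25.7 ± 10.2 to 9.16 ± 4.62 CPM. The log2 fold change was -1.48 ± 0.38 (SE), its interval -2.33 to -0.64, and the edgeR adjusted p = 0.0277. The call was lost without aged A, aged B, young B or young C, with edgeR adjusted p of 0.0682, 0.0641, 0.0943 and 0.121. It held without aged C or young A, the overlapping pair.

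Some of the 8 genes overlap other genes, and whether the strand of the reads was used in counting is not given in the sources used here. Without strand, reads of a gene and of one on the other strand cannot be told apart. Over the 6 samples, Gm14023 had 266 counts against 65355 for Il1a, which it overlaps, and Il1bos 208 against 645115 for Il1b. Bco2 and Tex12 had 270 and 24 counts against 3207 for Il18. Numa1, which shares 80 bases with Il18bp, had 553 counts against 1696. Gm38070 (over Il1r1) and Gm37347 (over Il1r2) had 14 and 10 counts, and for Gm16894 (over Il1r2) and Gm20319 (over Il1rap) no count was used here.

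**Figure D3:**
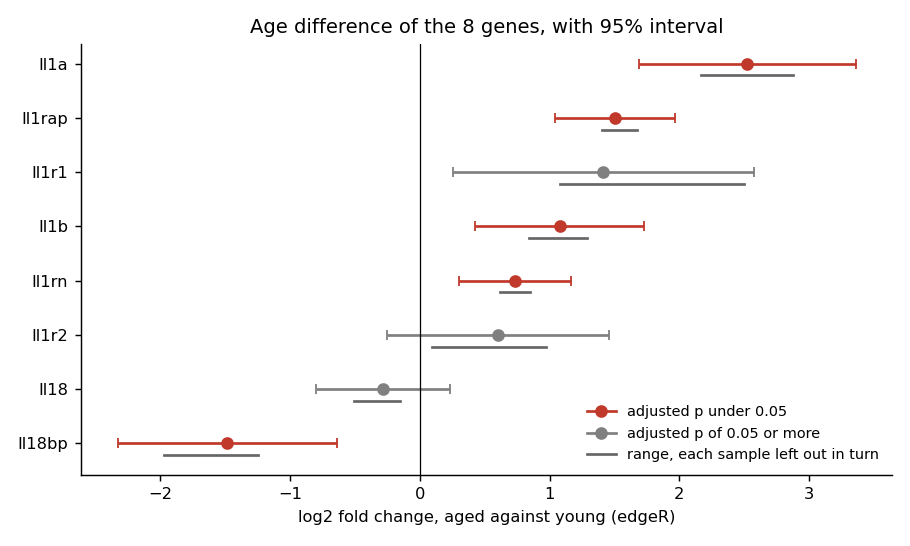
Log2 fold change of each gene, aged against young, with its 95% interval (edgeR, red where the adjusted p is under 0.05), and below it the range over the 6 fits that each left out 1 sample. Il1a lies highest at 2.52 and Il18bp lowest at -1.48, and the range of Il1r1 is the widest, from 1.08 to 2.50.

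Per kilobase of transcript, Il1b and Il1rn led the 8 genes at both ages. In aged samples the mean level per kb was 6812 ± 1904 CPM for Il1b, 1756 ± 227 for Il1rn, 604 ± 126 for Il1a, 286 ± 165 for Il1r2, 38.4 ± 9.79 for Il18, 11.9 ± 2.43 for Il1rap, 6.31 ± 3.18 for Il18bp and 1.12 ± 0.286 for Il1r1. Il1rap and Il18bp overlapped in range there, and the other neighbours in that order did not. In young samples it was 3226 ± 1044 for Il1b, 1056 ± 166 for Il1rn, 188 ± 58.7 for Il1r2, 105 ± 53.2 for Il1a, 46.7 ± 10.8 for Il18, 17.7 ± 7.0 for Il18bp, 4.2 ± 0.668 for Il1rap and 0.416 ± 0.377 for Il1r1. Il1a was thus below Il1r2 in young and above it in aged samples, but their ranges overlapped in the young, as did those of Il1a and Il18, and with the longest transcript as the length their order in the young was the other way round.

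The balance of agonists and antagonists was read as ratios of levels per kb within each sample. The ratio of Il1b to Il1rn was 1.76, 4.68 and 3.15 in young A, B and C and 3.68, 3.29 and 4.53 in aged A, B and C. The ages overlapped, since both the lowest and the highest ratio were in young samples. The log2 ratio was 1.57 ± 0.71 in young and 1.93 ± 0.23 in aged samples, a difference of 0.36 (exact permutation test, two-sided, p = 0.5). Without young A the difference was -0.016. With Il1a added to the agonists, the difference was 0.44 (exact permutation p = 0.4), and with the decoy Il1r2 added to Il1rn it was 0.47 (exact permutation p = 0.4). These were 0.058 and 0.063 without young A and 0.78 and 0.79 without young B. Both agonists and the antagonist thus rose, and a difference in their ratio was not detectable with 3 samples per age. The smallest p this design allows is 0.1.

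The ratio of Il1a to Il1b and that of Il18 to Il18bp separated the ages. Il1a made up 2.18, 3.55 and 3.26% of the Il1a and Il1b level in young A, B and C, and 8.36, 8.73 and 7.64% in aged A, B and C. The ratio of Il1a to Il1b was 2.97-fold higher in aged samples (log2 difference 1.57, exact permutation p = 0.1, and 0.3 after Benjamini-Hochberg adjustment over the 6 ratios). Il18 to Il18bp was at 3.57, 2.45 and 2.42 in young and 8.16, 6.58 and 4.99 in aged samples, 2.33-fold higher in aged samples (log2 difference 1.22, exact permutation p = 0.1, adjusted 0.3). Both p-values are the smallest that the test can give. Il1r1 to Il1r2 was at 0.00337, 0.00115 and 0.00143 in young A, B and C and 0.00311, 0.00670 and 0.00401 in aged A, B and C. These overlapped, with a log2 difference of 1.31 (exact permutation p = 0.2, adjusted 0.4).

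**Figure D4:**
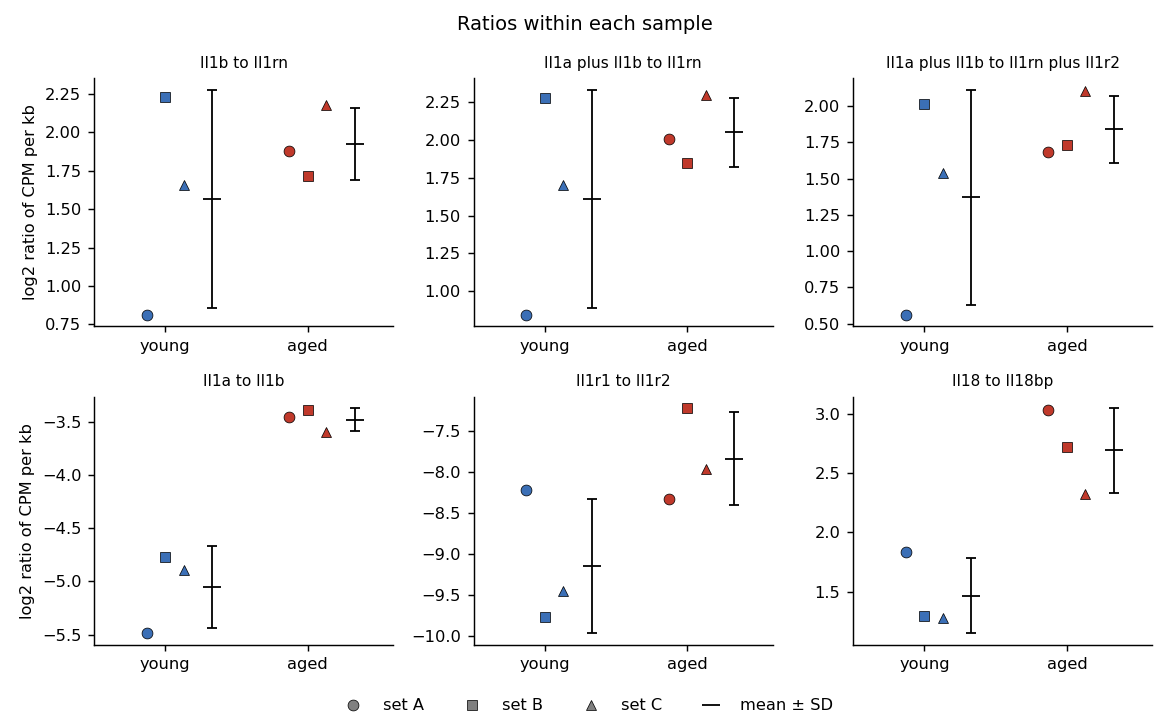
Log2 ratios of levels per kb within each sample, young (blue) and aged (red), with the mean ± SD (n = 3); the vertical axes do not start at 0. The ages separate for Il1a to Il1b and for Il18 to Il18bp, and overlap in the other 4 panels.

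Other family members, co-receptors and decoys were measured next. Of 13 on the list, 8 were in the table and 6 were tested. In aged samples 3 were higher and 0 lower (edgeR, with 4 higher and 0 lower at an unadjusted p under 0.05, and 0 lower in DESeq2 and limma-voom), beside 9.73% higher and 7.97% lower of all genes tested. Their median log2 fold change was 1.55, beside -0.02 over all genes. Il36g, an agonist of the same family listed as Il1f9, was at 18.9, 22.2 and 19.1 CPM in young and 158, 58.8 and 77.7 CPM in aged A, B and C (log2 fold change 2.29 ± 0.32 SE, edgeR adjusted p = 0.00379). Keratinocytes also make it, and their markers were found despite the CD45+ gate, with Krt14 at 80.2 CPM in aged B. The sum of the keratinocyte list was also higher in every aged than in every young sample (20.9, 231 and 10.7 CPM in aged A, B and C), with aged B highest, where Il36g was lowest of the aged samples. In aged A and C that sum was mostly Cdh1 (9.95 and 6.67 CPM) and Sfn (7.71 and 2.04 CPM), named after their values were seen. Krt14 (0.771 and 0.865 CPM), Epcam (0.841 and 0.432 CPM) and Perp (0.981 and 0.309 CPM) were low there but above every young sample. Young samples held at most 0.176, 0.117 and 0.221 CPM of these. The paper also uses EpCAM to mark F4/80+ Langerhans cells, so Epcam is not particular to keratinocytes. Krt10 overlapped with young samples, and Krt5, Krt1, Krt6a, Krt16, Krt17 and Dsp were at 0 to 0.14 CPM in aged A and C. Their part in this result was not tested. Its receptor Il1rl2, which pairs with Il1rap, rose from 3.36 ± 0.555 to 9.53 ± 1.11 CPM (log2 fold change 1.51, edgeR adjusted p = 0.00656). Il18rap, the co-receptor for IL-18, rose from 2.50 ± 0.866 to 11.5 ± 3.14 CPM (log2 fold change 2.18, edgeR adjusted p = 0.00427). Il18r1, the receptor for IL-18 itself, named after its values were seen, was at 0.420 CPM or less in every sample, too low to be tested. Il33 was the highest by CPM that did not pass, at 1.48 ± 1.0 and 2.89 ± 3.16 CPM (edgeR adjusted p = 0.398).

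Of the 17 receptor signalling genes, 16 were tested, 6 rose and 0 fell (edgeR, 7 and 0 at an unadjusted p under 0.05, and 0 fell in DESeq2 and limma-voom), beside the same 9.73% and 7.97% of all genes. The median log2 fold change was 0.42. Both activating and restraining genes were among those that rose. Irak2, a kinase-like adaptor of the receptor complex, rose from 67.1 ± 12.2 to 171 ± 12.1 CPM (log2 fold change 1.35, edgeR adjusted p = 0.00283), and Traf6, the ubiquitin ligase that passes the signal on, from 24.9 ± 3.13 to 45.3 ± 7.04 CPM (0.86, edgeR adjusted p = 0.0149). Irak3, which restrains the complex, rose from 35.9 ± 3.37 to 86.5 ± 13.3 CPM (1.27, edgeR adjusted p = 0.00319), and so did Tollip, another inhibitor, from 86.8 ± 41.7 to 173 ± 18 CPM (log2 1.0, edgeR adjusted p = 0.0397). Peli1, a ubiquitin ligase, rose by a log2 fold change of 0.68 (edgeR adjusted p = 0.0277) and Nfkbiz, an NF-κB cofactor induced by IL-1, by 0.96 (edgeR adjusted p = 0.0408). Ube2n, the highest by CPM that did not pass, was at 255 ± 24.2 and 260 ± 15.9 CPM (edgeR adjusted p = 0.921).

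Of the 11 processing and release genes, 10 were in the table and 9 were tested, of which 3 rose and 0 fell (edgeR, 4 and 1 at an unadjusted p under 0.05, and 0 fell in DESeq2 and limma-voom). Of all genes 9.73% rose and 7.97% fell, so that 0 of 9 is no result about these genes. The median log2 fold change was 0.20. Nlrp3, the sensor of the inflammasome, rose from 16.8 ± 0.249 to 47.4 ± 5.01 CPM (log2 fold change 1.49, edgeR adjusted p = 0.00136). Capn2, a calpain subunit, a protease family that cleaves pro-IL-1α, rose from 154 ± 12.6 to 243 ± 16.2 CPM (0.66, edgeR adjusted p = 0.0212). Prtn3, a granule protease of neutrophils, rose from 4.15 ± 1.09 to 8.48 ± 2.7 CPM (1.03, edgeR adjusted p = 0.0476). Casp8 was the highest by CPM that did not pass, at 115 ± 13 and 155 ± 4.79 CPM (edgeR adjusted p = 0.0804). Casp1, the protease that cleaves pro-IL-1β and pro-IL-18, named for that role after its values were seen, was at 55.7 ± 13.6 and 37.5 ± 7.68 CPM, its log2 fold change being -0.57 (edgeR adjusted p = 0.0979).

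**Figure D5:**
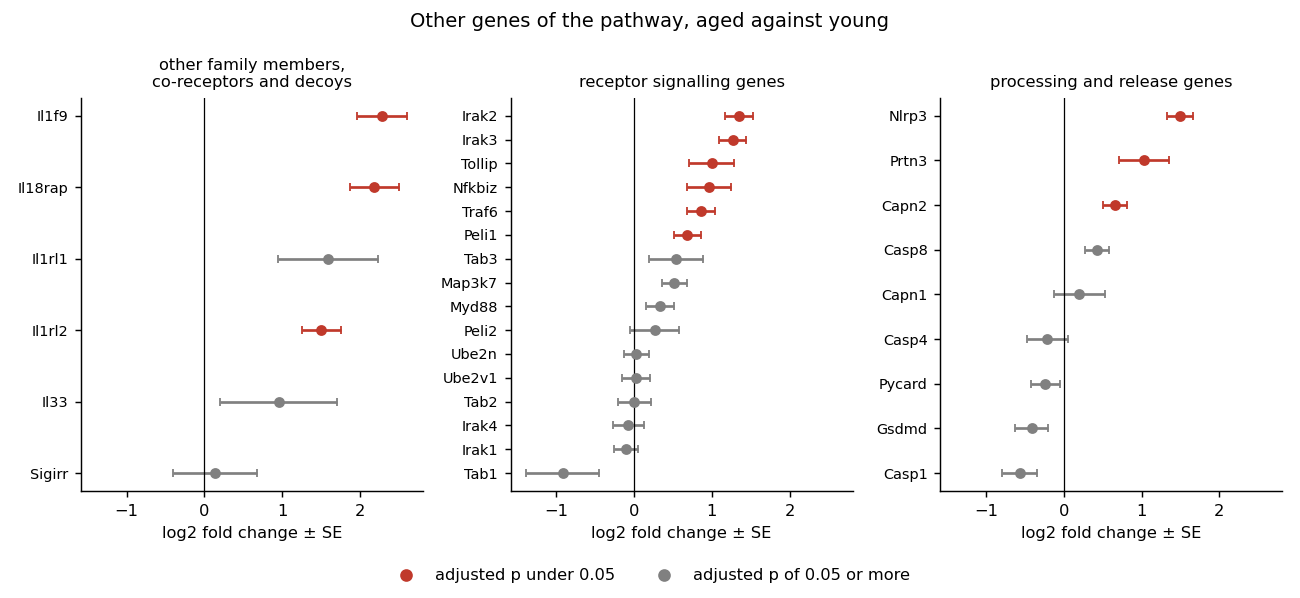
Log2 fold change ± SE, aged against young, of the tested genes of 3 lists: other family members, receptor signalling genes, and processing and release genes. Red marks an edgeR adjusted p under 0.05, which 3, 6 and 3 genes reached, all of them higher in aged samples.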

How the data were processed

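The authors aligned the reads with STAR 2.7.3a to mm10 and quantified them on Ensembl transcripts (release 102) in Partek Flow. They deposited expected counts per gene, without normalisation, for genes with a total of at least 10. Another deposited table, with the authors' own DESeq2 comparison (normalised values, fold changes and p-values), was not used here.

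The expected counts were rounded and tested in R 4.3.3 with edgeR 4.0.16: TMM scaling, filterByExpr by age, and a two-sided quasi-likelihood test for age. P-values were adjusted over 11878 genes by Benjamini-Hochberg. A gene passed at an adjusted p-value under 0.05 and was called, as in the study, when also past 2-fold. Levels between genes and ratios used CPM per kb of the median transcript length (GENCODE). Ratios were tested by exact permutation over samples. Promoter windows came from RefSeq, and no protein sequence was used. DESeq2 1.42.0, limma-voom (limma 3.58.1), other scalings and filters, a test against 2-fold (edgeR's glmTreat), a block for the set letter, and fits without 1 sample each were run as alternatives, and the fits were tested on simulated data. All samples were counted separately, since replicates differed beyond sampling noise. Intervals of the fold changes cover the spread between samples.

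The members and lists were chosen with earlier results of these data known. The genes named are the 8 genes, those of each pathway list that passed with the highest by mean CPM that did not, the 3 genes most like Il1b, Il1rn and Il18, and the marker of highest CPM in each cell type, unless said otherwise.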

Additional observations from a re-analysis of the deposited data

How the results depend on the processing

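The direction of each of the 8 log2 fold changes was the same under every alternative run. Il1a, Il1b, Il1rn, Il1rap and Il18bp passed in 7 of 7 other scalings, filters, tools and the block. The test against 2-fold (edgeR's glmTreat) was the exception: with the fold changes unchanged at 2.52, 1.08, 0.73, 1.5 and -1.48, none of these 5 genes passed (adjusted p from 0.0757 for Il1a to 1.0 for Il1b and Il1rn), so that 0 of the 8 were higher and 0 lower, beside 26 and 3 of all genes tested. An estimate past 2-fold is thus not shown to exceed 2-fold. Il1r1 passed in DESeq2 (log2 fold change 1.44), in limma-voom (1.99) and with the replicate block (1.69), and did not pass in the other 4 or in the test against 2-fold.

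Leaving out 1 sample moved the log2 fold change of Il1b between 0.84 and 1.29, of Il1rn between 0.62 and 0.85, of Il1r1 between 1.08 and 2.50, of Il1r2 between 0.094 and 0.97 (not passing in any of the 6) and of Il18bp between -1.97 and -1.25. The number of the 8 genes passing as higher ran from 2 to 4, and as lower from 0 to 1, also with the 2-fold limit (0 to 1). Passing higher were 3 to 5 other family members (5 without young A), 2 to 7 signalling genes (3 without aged A or young B, 2 without aged C or young C) and 1 to 2 processing genes (1 without aged C, young B or young C), and 0 to 2 processing genes passed lower (2 without young A). Over all genes, the main fit had 1156 higher and 947 lower. The same counts were 1574 and 1128 without young A, and 151 and 67 without young C. Without aged A they were 863 and 522, while 2 of the 8 genes passed higher, against 4 in the main fit. Signalling genes passing higher went from 6 to 3 there. Thus fewer passed as higher in that fit among the 8 genes, the signalling genes and all genes alike. Whether these shifts are particular to the listed genes was not tested. The difference in the log2 ratio of Il1b to Il1rn ran from -0.016 (without young A, a change of sign) to 0.69, with Il1a added from 0.058 to 0.78, and with Il1r2 added as well from 0.063 to 0.79. These fits hold fewer samples, and the cause of these changes was otherwise not tested.

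The deviations of samples with the same set letter from their group means correlated at r = 0.18 for A, -0.02 for B and 0.11 for C, and not every sample correlated best with its own letter, so the letters were not read as pairs. With the replicate block 1202 genes were higher and 912 lower, against 1156 and 947 without it, and the log2 ratio differences were the same by construction. At 16 to 108 counts per sample, depth limits Il1r1 most.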

Other observations

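The genes whose log2 CPM followed Il1b, Il1rn and Il18 most closely over the 6 samples are given as a description, among 6581 genes with a mean of at least 10 CPM. The 6 samples share their age groups and depth. Nearest to Il1b were Map3k8 (Pearson r = 0.989), Usp15 (0.988) and Samsn1 (0.987). Map3k8, a kinase of the ERK pathway in macrophages, was at 30.2, 45.6 and 44.0 CPM in young and 57.6, 48.7 and 74.4 CPM in aged A, B and C, the same order of samples as for Il1b. Nearest to Il1rn were Kcna3 (0.996), Atp1b3 (0.995) and Bbx (0.994). Kcna3, a potassium channel gene, was at 21.4, 13.7 and 21.7 CPM in young and 54.4, 38.0 and 54.0 CPM in aged samples. Nearest to Il18 were Ctsc (0.976), Asap1 (0.970) and Ifi211 (0.968). Ifi211, an interferon-inducible gene, was at 164, 296 and 300.1 CPM in young and 135, 147 and 229 CPM in aged samples, with young A and aged A and B lowest, as for Il18.

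Among the 8 genes, Il1a and Il1b had r = 0.96 over the 6 samples, Il1rn and Il1rap 0.98, and Il18 and Il18bp 0.88, while Il1r1 and Il18bp had -0.89. Young A stood apart from young B and C in several of them. It had the lowest Il1a, Il1b, Il18 and Il18bp and the highest Il1r1, Il1r2, Il1rn and Il1rap of the young samples.

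The leading markers of the other lists were Lyz2 for macrophages (24157 to 38843 CPM in young and 16240 to 21389 CPM in aged samples; Cd14 and Itgam, named after their values were seen, were higher in aged samples, at 7590.1 to 8439 against 13817 to 19916 CPM and at 334 to 402 against 702 to 822 CPM), Col3a1 for fibroblasts (48.3 CPM in aged B and 2.94 to 14.3 CPM elsewhere), Cpa3 for mast cells and basophils (7.33 to 23.5 CPM in young, 17.7 CPM in aged A and 0 in aged B and C), Trac for T cells (0.293 to 1.68 CPM) and Pecam1 for endothelial cells (6.80 to 10.1 CPM in young and 24.4 to 28.3 CPM in aged samples). The other endothelial markers, Kdr (0.996 to 2.97 CPM in young and 0.631 to 2.10 CPM in aged samples) and Cdh5 (at most 0.704 CPM), overlapped between the ages and were named after their values were seen. Among the other macrophage markers, Adgre1 and Cd68 were lower in every aged than in every young sample, as was Lyz2. Adgre1 was at 290 to 357 CPM in young and 172 to 241 CPM in aged samples. Cd68 was at 1789 to 2146 CPM in young and 1383 to 1572 CPM in aged samples. Fcgr1 was higher in every aged sample, at 422 to 467 against 486 to 514 CPM, and Ptprc, Csf1r and Mertk overlapped. These were also named after their values were seen. The part of all these markers in the values of the 8 genes was not tested.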
